A study of Mus musculus with 6 samples.

Results

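The serpins are a family of proteins that mostly inhibit proteases, and the genes described here are those whose name in the array files starts with Serpin, a clade letter from a to i and a number. That rule found 73 of the 41174 probes on the array, which stand for 54 of 27598 genes: 20 of clade a, 24 of clade b and 10 of clades c to i. RNA from C57BL/6 mice was measured on 6 single-colour Agilent arrays in 2 groups. The thymic group (ThymusEC, 3 arrays) held cells of the thymic medulla that were sorted as Epcam+ UEA1+ CD45- and as live by Fluorogold, from pools of 6, 6 and 2 thymi. The thyroid group (ThyroidEC, 3 arrays) held Epcam+ CD45- Fluorogold- cells from pools of 20 thyroids per array, sorted without the lectin UEA1. The mice's age and sex are not among the labels used here, and no treatment or engineered allele is named for either group. The replicates are described in the submission as independent, and because each is a pool, the p-values below measure the spread between pools and not between animals.

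An inhibitory serpin presents a flexible reactive loop as bait, and a protease that cuts it is trapped in a covalent complex, so each serpin molecule works once. Clade a holds mainly secreted plasma proteins of the liver, some of which inhibit no protease and carry hormones instead. Clade b holds proteins without a classical signal peptide that act mainly inside cells, many of them known from stratified epithelium and from leukocytes. The remaining clades hold the regulators of clotting, fibrinolysis and complement, a collagen chaperone and a nerve-cell serpin. Medullary thymic epithelial cells are known for transcribing genes of many other tissues, in part under the control of Aire, and for displaying the products to developing T cells.

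A level below is the log2 signal of a probe relative to the 75th percentile of its own array, and a difference is the thymic mean minus the thyroid mean of that level. Levels of different probes are not compared, since probes differ in how well they bind. A probe is called above background where the scanner software marked it well above background. Between 78.4% and 81.0% of all probes had this mark on the thymic arrays and between 65.3% and 72.7% on the thyroid arrays. The defining markers of each labelled cell type were present in its own group. Aire was at 6.04 ± 0.16 on the thymic and -6.04 ± 0.45 on the thyroid arrays, and Tg, the thyroglobulin gene, at -1.83 ± 0.09 and 8.95 ± 0.24 (SD, n = 3 each). All 8 markers of medullary epithelium were higher in thymic cells, and 8 of 9 markers of thyroid follicular cells were lower, with Tshr and Pax8 above background on no thymic array. The sort markers also differed: Epcam averaged 2.87 in thymic and 1.63 in thyroid cells, and Ptprc, which encodes CD45, -0.95 in thymic and -4.97 in thyroid cells. All 11 endothelial markers were lower in thymic cells, with a summed signal of 3.34 to 3.38 times the 75th percentile on the thymic arrays, against 406 to 608 times on the thyroid arrays. Of 6 markers of thyroid C cells and the parathyroid, 4 were lower and 1 higher in thymic cells. Their summed signal was 68.3 to 130 times on the thymic arrays and 559 to 1232 times on the thyroid arrays. Among them Pth varied between thyroid arrays, at 6.38, 8.57 and 6.46. In sorted bulk RNA, fewer cells of a type and less RNA per cell cannot be told apart, and this holds for every difference below. The thymic arrays and thyroid array 1 shared a slide, and thyroid arrays 2 and 3 were on another.

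Most serpin genes were higher in the thymic cells. Of the 54 genes, 48 were tested, namely those with a probe above background on every array of 1 group or of both. By limma with Benjamini-Hochberg adjustment over all 21381 genes tested, 43 serpin genes were higher in thymic cells, 2 were lower and 3 did not pass an adjusted p of 0.05. In the same fit 39.2% of all genes tested were higher and 30.6% lower. When the arrays were centred on their medians instead, these shares were 28.5% and 51.6%. With that centring 35 of the 39 genes of clades a and b tested were higher, and the median over the 48 serpin genes was 2.90. The median difference was 3.43 over the 48 serpin genes and 0.10 over all genes tested. It was 2.49 over the 48 with the 17 genes that were above background on no thyroid array set to the lower bound of their difference. With no filter on background, 43 of all 54 serpin genes were higher, against 31.3% of 27572 genes. Among the 25 serpin genes above background on all 6 arrays, 20 were higher and 2 lower, against 29.4% higher among 17071 such genes.

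The levels of the groups did not overlap in 45 of the 48 serpin genes tested, and this was so for 76.5% of all genes tested. A probe above background on all thymic and on no thyroid array represented 17 serpin genes, all of clades a and b, while 10.8% of all genes tested had this pattern. Differences of 8-fold or more towards the thymic cells were found for 28 serpin genes and for 13.7% of all genes tested, and for 21 serpin genes with those 17 at their bound. Of the 6 genes not tested, Serpina1f, Serpinb3d, Serpinb9b, Serpinb9c and Serpinb9g were above background on no array, and Serpini2 was above it on 2 thymic arrays.

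**Figure D1:**
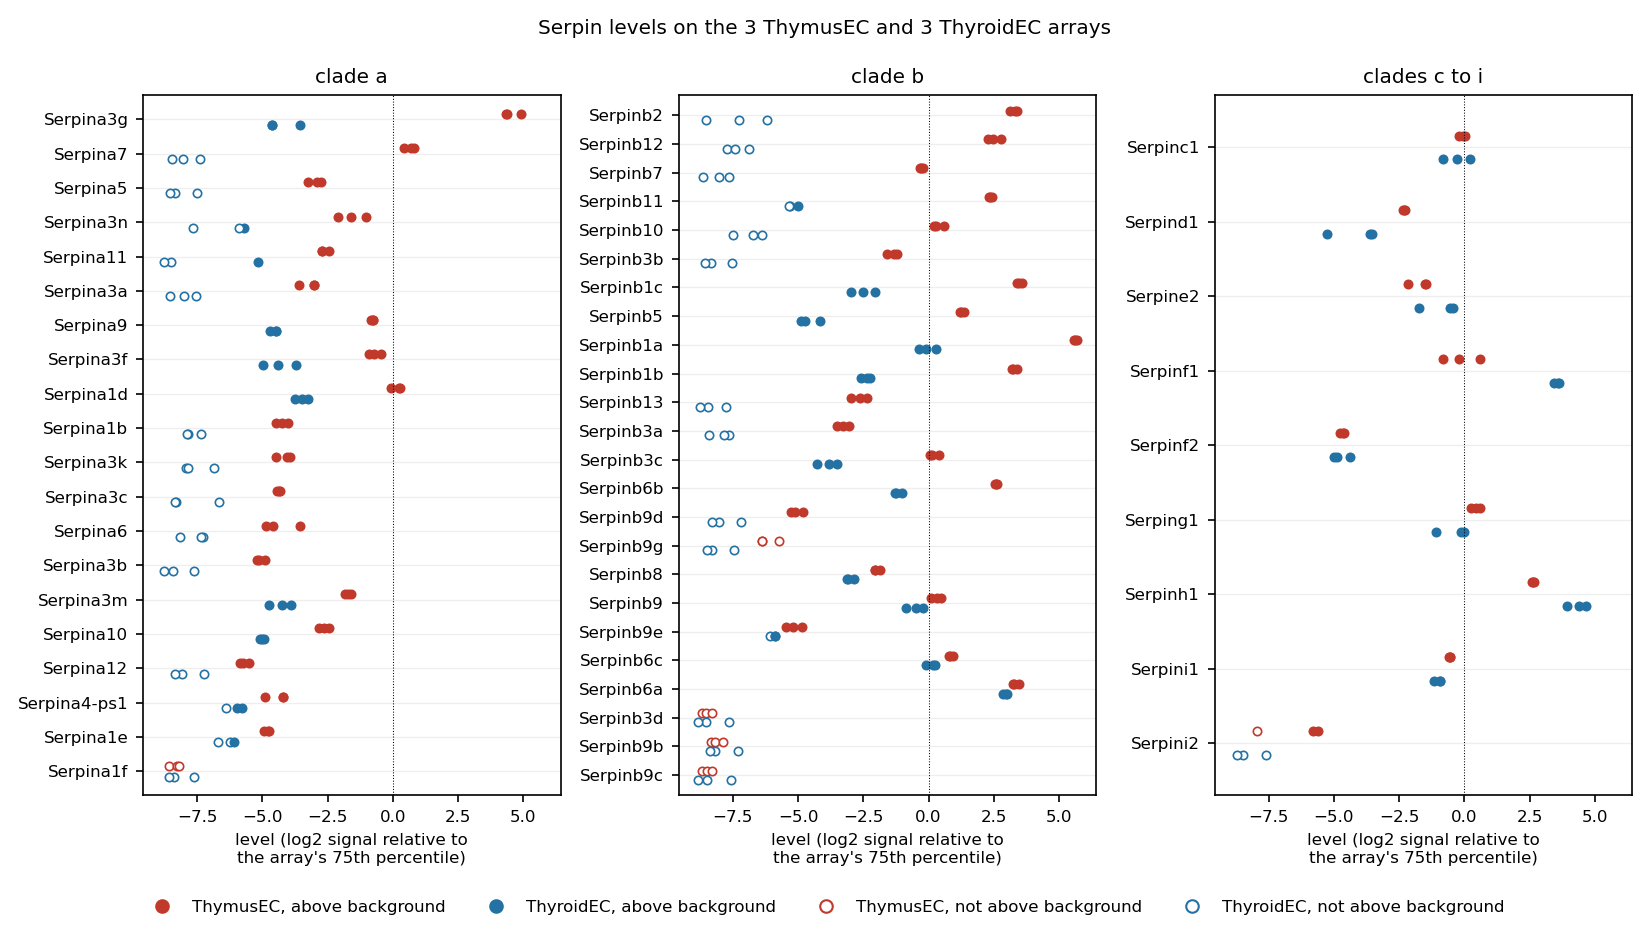
Level of 53 serpin genes on every array (x axis, log2 signal relative to the array's 75th percentile), with genes in rows, ThymusEC in red above ThyroidEC in blue, and open circles for arrays on which the probe was not above background. In clades a and b the thymic values lay to the right for the 39 genes tested, while in clades c to i 3 of 8 genes drawn and tested overlapped between the groups and 2 lay lower in thymic cells; under median centring the mean of Serpinb6a, and under quantile normalization that of Serpinb9e, was lower in thymic cells.

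In clade b the differences were largest in the cluster on chromosome 1, several of them against thyroid values that only bound the level. All 20 clade b genes tested were higher in thymic cells, by 0.37 to 10.62, with the exceptions under other scalings that Serpinb6a fell slightly below 0 with median centring (-0.17) and Serpinb9e with quantile normalization (-0.50). Neither exception passed the test. Of the 20 genes, 10 were above background on all 6 arrays, and the others passed the filter only by their thymic arrays. Serpinb2 encodes plasminogen activator inhibitor 2, a serpin of macrophages and keratinocytes. Its level was 3.14, 3.32 and 3.40 on the thymic arrays, against -7.27, -6.21 and -8.53 on the thyroid arrays, none of which was above background. Since those thyroid values only bound the true level, the fold is a lower bound: thymic signal exceeded thyroid signal at least 655.6-fold (adjusted p = 5.18e-06, limma), where each thyroid value was raised to the faintest signal above background on its array. That p-value, like those beside other lower bounds here, comes from the fit on the values before this raising and does not test the bound. The Serpinb2 probe lies at chr1:109352466-109352525 (mm8) and starts at base 1225 of the transcript.

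Serpinb12, a clade b serpin with trypsin-like targets, was at 2.46, 2.29 and 2.76 on the thymic arrays and at -6.88, -7.73 and -7.43 on the thyroid arrays. No thyroid value of this probe was above background, and its fold was at least 380.8 (adjusted p = 4.39e-07, limma). The other Serpinb12 probe was above background on 1 thyroid array and differed by 6.13, which is 70.2-fold. The bound therefore holds for the first probe alone. Serpinb7, also called megsin and mutated in a human skin keratosis, was at -0.33, -0.29 and -0.21 on the thymic arrays and at -8.04, -7.65 and -8.66 on the thyroid arrays. The thymic values agreed closely with one another, and Serpinb7 was at least 55.5-fold higher. Serpinb11 was at 2.35, 2.33 and 2.44 on the thymic arrays, against -5.32, -5.35 and -4.99 on the thyroid arrays, of which 2 were above background. That is a difference of 7.60 (SE 0.13, adjusted p = 2.35e-07, limma). Serpinb10, or bomapin, is known from blood-forming cells. It was at 0.21, 0.28 and 0.58 on the thymic arrays and at -6.38, -7.51 and -6.75 on the thyroid arrays, and by this probe at least 85.9-fold higher in thymic cells. Its other probe was above background on 2 thymic arrays and on no thyroid array, at least 1.3-fold higher, and was not tested. Serpinb3b belongs to the mouse relatives of the human squamous cell carcinoma antigens, which inhibit cysteine and serine proteases. Its level was -1.33, -1.58 and -1.22 on the thymic arrays, against -8.36, -7.54 and -8.58 on the thyroid arrays, with a fold of at least 25.9.

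The other genes of this cluster that were tested also rose. Serpinb5, known as maspin, differed by 5.88 and was above background on all 6 arrays. Serpinb13, an inhibitor of lysosomal cathepsins in keratinocytes, was at least 10.7-fold higher, Serpinb3a at least 6.9-fold, and Serpinb3c differed by 4.04. Serpinb8, at the edge of the cluster, differed by 1.03, which is 2.05-fold. Markers of cornified keratinocytes moved the same way, with all 8 of the measured ones higher in thymic cells and a summed signal of 38.9 to 46.2 on the thymic arrays and 2.64 to 3.51 on the thyroid arrays, where Ivl and Krtdap were above background on no array. Markers of myeloid and dendritic cells, 7 of 8 tested, were higher in thymic cells as well, with a summed signal of 93.5 to 102 on the thymic and 2.43 to 3.27 on the thyroid arrays. Nearly all of the thymic sum was Lyz2, which averaged 6.59 there, while every other marker of the list averaged -0.85 or lower. The exception, Zbtb46, differed by -2.48 and was the brightest of the list on the thyroid arrays, at 0.65. The part of keratinocytes or of myeloid and dendritic cells in the serpin differences was not tested.

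The promoters of these clade b genes are shown because 6 of the 11 genes of the cluster that have a RefSeq promoter hold the letters TATAAA, the core of the TATA box, within the 100 bases before the start. RefSeq (GRCm38.p6) gave promoters for 44 of the 54 serpin genes. Read on both strands, the letters stood in that window of 21.2% of the 52 serpin promoters and of 5.56% of all 32851 promoters. The windows below run 5′ to 3′ on the strand of the gene, with the match in capitals (TTTATA is its reverse complement), and in none of them did it overlap a match of another motif searched.
Serpinb2, chr1:107511323-107511422, plus strand: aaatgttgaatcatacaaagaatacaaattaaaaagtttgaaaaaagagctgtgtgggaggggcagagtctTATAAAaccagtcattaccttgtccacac
Serpinb7, chr1:107422589-107422688, plus strand: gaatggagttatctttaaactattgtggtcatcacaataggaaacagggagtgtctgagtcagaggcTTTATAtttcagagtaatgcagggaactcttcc
Serpinb3b, chr1:107161115-107161214, minus strand: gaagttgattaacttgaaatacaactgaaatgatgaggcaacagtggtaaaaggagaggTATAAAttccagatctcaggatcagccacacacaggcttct
Serpinb3c, chr1:107278372-107278471, minus strand: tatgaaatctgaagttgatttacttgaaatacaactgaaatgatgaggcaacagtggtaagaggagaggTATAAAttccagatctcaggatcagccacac
Serpinb3d, chr1:107083481-107083580, minus strand: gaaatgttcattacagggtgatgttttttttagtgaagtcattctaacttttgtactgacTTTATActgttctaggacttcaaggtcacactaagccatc
The match began 29 bases before the start in Serpinb2, 33 in Serpinb7, 41 in Serpinb3b and 31 in Serpinb3c. Serpinb3a held it too, 65 bases before its start. Serpinb3d, the member of the cluster that was above background on no array, also held it, so the letters did not separate the genes that were measured from the one that was not. Shifted by 10 bases, the promoters of Serpinb3b and Serpinb3c were identical at 279 of 290 positions (96.2%).

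TATAAA was 1 of 7 motifs searched in the whole 300-base promoters, all chosen with the results known. Anywhere in those windows it stood in 34.6% of serpin promoters and 13.6% of all promoters. The STAT palindrome TTCNNNGAA was found in 19.2% of serpin and 8.30% of all promoters, the interferon-type letters GAAANNGAA in 19.2% and 8.56%, and the AP-1 site TGACTCA in 7.69% and 5.20%. For CCAAT the shares were 30.8% and 37.4%, for the heat shock letters GAANNTTC 11.5% and 7.86%, and for the NF-kB letters GGGANTTTC 0% and 1.11%. These shares describe letters and not binding, and paralogues that arose by duplication share part of them.

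In the clade b cluster on chromosome 13 the genes tested differed by 0.37 to 6.00. Serpinb1a, Serpinb1b and Serpinb1c are the mouse copies of the leukocyte elastase inhibitor, which neutralises the granule proteases of neutrophils. They were above background on all 6 arrays and differed by 5.69, 5.68 and 6.00. Serpinb1a was at 5.63 ± 0.07 on the thymic and -0.06 ± 0.33 on the thyroid arrays (SD, n = 3 each), which is 51.5-fold (adjusted p = 8.45e-07, limma). Serpinb6b differed by 3.77, and Serpinb9d was at least 2.0-fold higher, a call lost with normexp correction (adjusted p = 0.262, limma). Neutrophil and mast cell markers were also higher in thymic cells, 5 of 6 tested, with a summed signal of 36.4 to 52.2 on the thymic and 0.824 to 1.14 on the thyroid arrays. Elane was above background on no array of either group, and S100a8 and Ms4a2 on no thyroid array. The part of these cells in the serpin differences was not tested.

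The smallest differences of clade b belonged to this cluster as well. Serpinb6a, an intracellular inhibitor of cathepsin G, was at 3.22, 3.47 and 3.28 on the thymic arrays, against 2.98, 3.01 and 2.87 on the thyroid arrays. The other probe of Serpinb6a differed by 1.53 (adjusted p over all probes = 2.42e-05, limma). By the probe shown the groups did not overlap, and the difference of 0.37 passed narrowly (adjusted p = 0.0257, limma). It lost the call with the slide as a block (adjusted p = 0.119, limma), within slide 1 (0.34, adjusted p = 0.104) and without thymic replicate 2 (adjusted p = 0.0945), thymic replicate 3 (0.0610) or thyroid replicate 3 (0.0592).

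Serpinb6c was at 0.83, 0.95 and 0.77 on the thymic arrays and at -0.10, 0.25 and 0.15 on the thyroid arrays. Its difference of 0.75 (adjusted p = 0.00191, limma) did not pass with median centring (0.22, adjusted p = 0.147). Serpinb9e, a relative of the granzyme B inhibitor, was at -5.45, -4.87 and -5.20 on the thymic arrays and at -6.08, -5.89 and -5.90 on the thyroid arrays. These levels are close to background, and only 1 thyroid array was above it. Its difference of 0.79 (adjusted p = 0.00517, limma) did not pass with median centring (0.25), the value table (0.26) or normexp correction (0.04), and with quantile normalization it was -0.50. Serpinb9 itself, which protects cells from granzyme B, differed by 0.82 (adjusted p = 0.00858, limma), but by 0.51 with the slide as a block (adjusted p = 0.106) and by 0.51 within slide 1 (adjusted p = 0.0639). Median centring took it to 0.29, which did not pass (adjusted p = 0.224). The other probe of Serpinb9 differed by 1.67 (adjusted p over all probes = 2.13e-04, limma).

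In clade a all 19 genes tested were higher in thymic cells, by 1.51 to 8.81, a direction that held under each scaling tried. Of them, 6 were above background on all 6 arrays, and the others passed the filter only by their thymic arrays. Serpina3g, a mouse member of the antichymotrypsin group known to inhibit lysosomal cathepsin B, had the largest difference of clade a among genes above background on all 6 arrays. Its level was 4.38, 4.92 and 4.32 on the thymic arrays, against -4.62, -3.57 and -4.63 on the thyroid arrays. Every array was above background, so the 450-fold difference (8.81, SE 0.33, adjusted p = 1.54e-06, limma) is not a bound. Its size depended on the processing: it was 170-fold with normexp correction, 311-fold with median centring and 573-fold within slide 1. Serpina7 encodes thyroxine-binding globulin, the plasma carrier of thyroid hormone. It was at 0.43, 0.69 and 0.82 on the thymic arrays and at -8.04, -7.39 and -8.45 on the thyroid arrays. Serpina7 was above background on no thyroid array, and its thymic signal was at least 105.1-fold higher (adjusted p = 9.11e-07, limma).

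Serpina5, the protein C inhibitor, was at -2.74, -3.25 and -2.91 on the thymic arrays and at -8.34, -7.49 and -8.54 on the thyroid arrays, a fold of at least 8.6 by this probe. Its other probe was above background on no array of either group, with a difference of -0.28, and was not tested. Serpina3n, which inhibits granzyme B and elastase in mice, was at -1.60, -1.01 and -2.10 on the thymic arrays, against -5.70, -5.89 and -7.65 on the thyroid arrays, of which 1 was above background. The difference was 4.85 (adjusted p = 2.34e-04, limma), and 4.23 without thyroid replicate 3. Serpina11 was at -2.45, -2.73 and -2.70 on the thymic arrays and at -8.49, -5.18 and -8.76 on the thyroid arrays. Its single thyroid value above background, on array 2, set the size of the difference of 4.85 (adjusted p = 0.00273, limma), and without that array no thyroid value was above background. Without thyroid replicate 3 the difference was 4.21. Serpina3a was at -3.04, -3.60 and -3.02 on the thymic arrays and at -8.54, -7.56 and -8.01 on the thyroid arrays, at least 7.2-fold higher in thymic cells.

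The promoter of Serpina3g held the STAT palindrome, which is the letters bound by the factors that act downstream of interferon and cytokine receptors, 33 bases before the start. It is printed because this gene had the largest difference measured above background on every array, with the palindrome in capitals (GRCm38.p6, RefSeq).
Serpina3g, chr12:104236047-104236146, plus strand: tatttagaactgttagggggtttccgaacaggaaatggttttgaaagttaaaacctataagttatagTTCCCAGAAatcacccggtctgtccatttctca

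The smallest differences in clade a were those of faint probes. Serpina1e, one of the mouse copies of alpha-1 antitrypsin, was at -4.77, -4.76 and -4.95 on the thymic arrays and at -6.69, -6.23 and -6.08 on the thyroid arrays. The difference was 1.51 (adjusted p = 2.74e-04, limma), and it did not pass with quantile normalization (0.25) or with normexp background correction (0.19). Serpina4-ps1, annotated by its name as a pseudogene, was at -4.92, -4.21 and -4.23 on the thymic arrays and at -5.99, -6.40 and -5.80 on the thyroid arrays. Serpina12, or vaspin, an adipose-tissue serpin, was at -5.74, -5.85 and -5.51 on the thymic arrays and at -8.10, -7.23 and -8.36 on the thyroid arrays, at least 1.3-fold higher. Both of these differences also failed to pass with normexp correction (0.35 for Serpina4-ps1 and 0.12 for Serpina12).

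The remaining 10 clade a genes tested lay between these ends. Serpina9, known from germinal centre B cells, differed by 3.78, Serpina1d by 3.65, Serpina3f by 3.68, Serpina3m by 2.60 and Serpina10, the protein Z-dependent inhibitor, by 2.37, each above background on all 6 arrays. Serpina6, the corticosteroid-binding globulin, was at least 3.3-fold higher, Serpina1b at least 3.5-fold, Serpina3k at least 3.8-fold, Serpina3c at least 3.2-fold and Serpina3b at least 2.0-fold. With normexp correction Serpina6, Serpina3k, Serpina3c and Serpina3b lost their calls (adjusted p of 0.0852, 0.0624, 0.0782 and 0.198, limma). As with the clade a serpins tested, the hepatocyte markers were higher in thymic cells, 7 of 7 tested, but faint: their summed signal was 2.24 to 2.93 on the thymic and 0.173 to 0.208 on the thyroid arrays. Of the 8 measured, 7 were above background on no thyroid array, among them Alb and Apoa1, and Fga was above it on no array of either group. B cell markers (5 of 5) and T cell markers (8 of 9 tested) were higher too, with summed signals of 4.00 to 4.86 and 2.30 to 4.41 on the thymic arrays, against 1.30 to 2.42 and 1.76 to 1.88 on the thyroid arrays. Most of the B cell sum was Cd79b, at 1.96 on the thymic arrays. Most of the thyroid T cell sum was the exception, Cd8b1, at 0.28 there and with a difference of -1.99. Ms4a1, Pax5, Cd3g, Cd8a and Rag1 were above background on no thyroid array, and Rag2 on no array of either group. The part of B and T cells in the serpin differences was not tested.

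**Figure D2:**
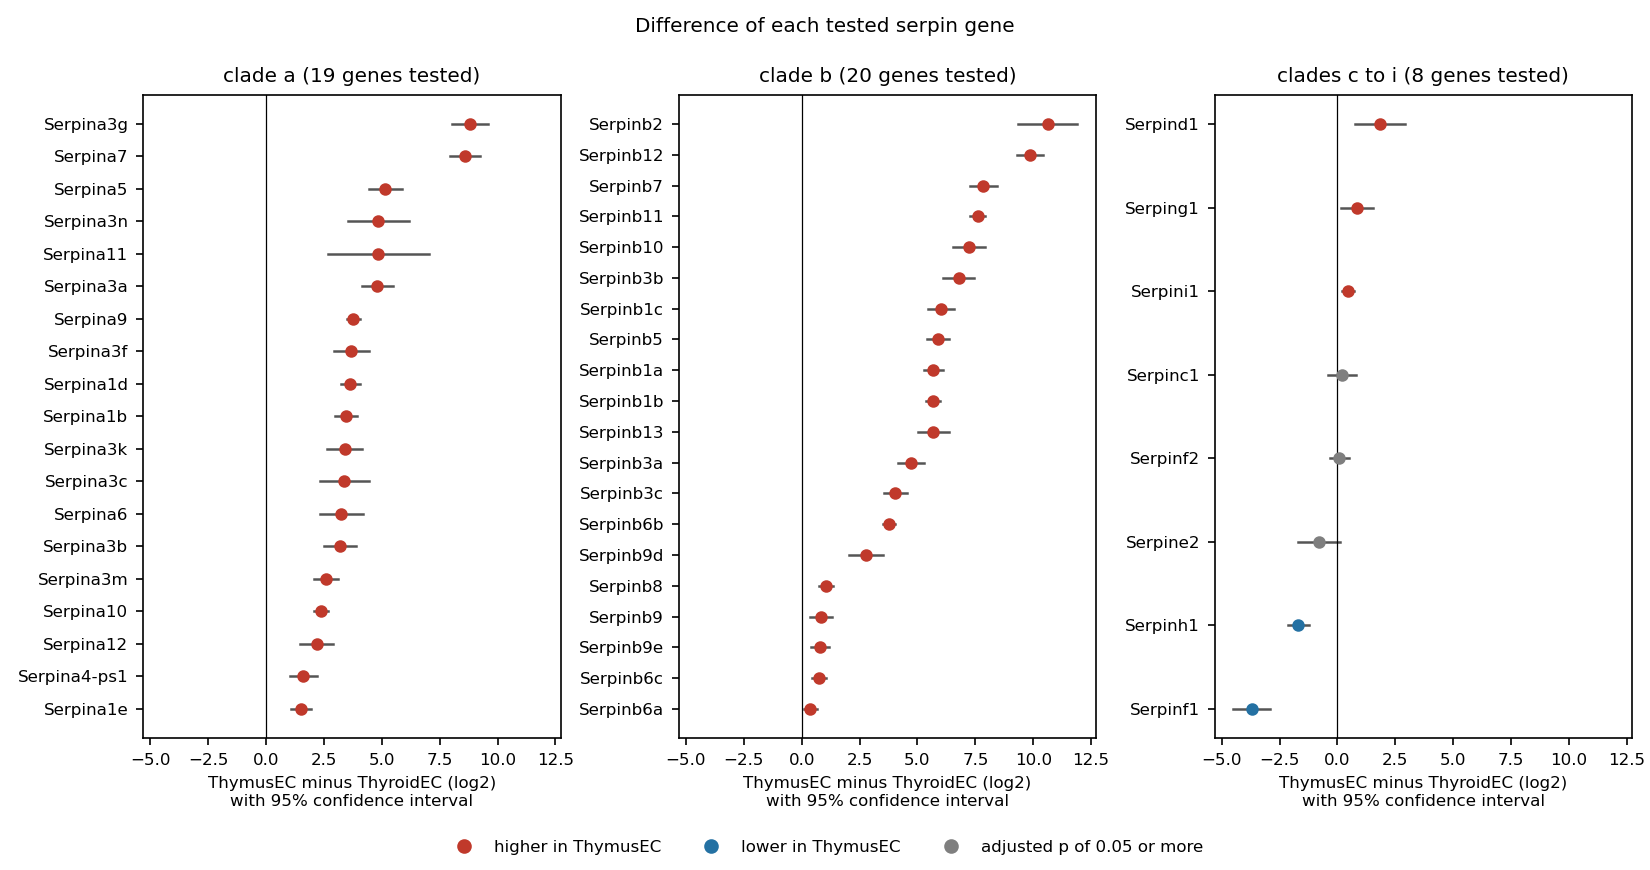
Difference of 47 serpin genes tested (x axis, ThymusEC minus ThyroidEC, log2, with the 95% confidence interval of the limma fit as a line), in red where higher and in blue where lower in ThymusEC at an adjusted p under 0.05 and in grey otherwise. Clades a and b held 39 genes, all to the right of 0 on this scale (under median centring Serpinb6a lay at -0.17, and under quantile normalization Serpinb9e at -0.50), and of clades c to i 3 lay to the right, 2 to the left and 3 did not pass.

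The serpins of clades c to i did not share a direction. Serpinf1 and Serpinh1 were lower in thymic cells. Serpinf1 encodes pigment epithelium-derived factor, a secreted protein without protease inhibition that is known to restrain blood vessel growth. It was at -0.82, -0.21 and 0.59 on the thymic arrays, against 3.44, 3.61 and 3.59 on the thyroid arrays. The thymic values were more scattered than the thyroid ones, and the groups lay far apart, 12.9-fold (-3.69, SE 0.33, adjusted p = 7.52e-05, limma). Serpinh1 encodes HSP47, the chaperone that folds collagen in the endoplasmic reticulum and inhibits no protease. It was at 2.63, 2.59 and 2.67 on the thymic arrays and at 4.66, 4.38 and 3.95 on the thyroid arrays, a difference of -1.70 (adjusted p = 1.98e-04, limma). Neither of these 2 genes changed its call under any alternative run.

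Serpind1, Serping1 and Serpini1 were higher in thymic cells, each with a call lost under at least 1 alternative, and Serpini1 turned negative with median centring (-0.08). Serpind1, or heparin cofactor II, an inhibitor of thrombin, was at -2.33, -2.27 and -2.34 on the thymic arrays and at -3.55, -3.62 and -5.26 on the thyroid arrays. The third thyroid array was lower than the others, and the difference of 1.83 (adjusted p = 0.00914, limma) was 1.24 with the slide as a block (adjusted p = 0.123) and 1.24 within slide 1 (adjusted p = 7.62e-04). Serping1, the C1 inhibitor of the complement and kallikrein pathways, was at 0.43, 0.60 and 0.25 on the thymic arrays and at -0.02, -0.12 and -1.07 on the thyroid arrays. The difference of 0.83 (adjusted p = 0.0372, limma) did not pass within slide 1 (0.45, adjusted p = 0.0737), with the slide as a block (0.45, adjusted p = 0.342), with median centring (0.30) or without any single thymic replicate (adjusted p of 0.0626 to 0.108).

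Serpini1, the neuroserpin of neurons, was at -0.55, -0.54 and -0.57 on the thymic arrays and at -0.92, -0.93 and -1.17 on the thyroid arrays. The difference of 0.45 (adjusted p = 0.0103, limma) was -0.08 with median centring and did not pass with the slide as a block (0.37, adjusted p = 0.0810). Serpini2, a pancreatic serpin, was at -5.79, -7.93 and -5.60 on the thymic arrays and at -8.48, -7.61 and -8.70 on the thyroid arrays, and it was not tested.

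Serpine2 and Serpinf2 did not pass. Serpine2, or protease nexin 1, an inhibitor of thrombin and urokinase, was at -2.17, -1.48 and -1.49 on the thymic arrays, against -0.55, -0.43 and -1.75 on the thyroid arrays. The third thyroid array fell among the thymic values, and the difference of -0.80 had a 95% confidence interval of -1.72 to 0.12 (adjusted p = 0.105, limma). It passed without thyroid replicate 3 (-1.22, adjusted p = 0.00561), within slide 1 (-1.16, adjusted p = 0.0305) and with median centring (-1.33, adjusted p = 0.0164). Serpinf2, the alpha-2 antiplasmin, was at -4.60, -4.77 and -4.65 on the thymic arrays and at -4.88, -4.99 and -4.40 on the thyroid arrays. The interval of its difference ran from -0.33 to 0.49 (adjusted p = 0.693, limma), but quantile normalization gave -0.99 (adjusted p = 8.89e-04). It also passed as lower with median centring (-0.45, adjusted p = 0.0437, limma) and with the value table (-0.44, adjusted p = 0.0477).

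Serpinc1, which encodes antithrombin, the main inhibitor of thrombin and factor Xa, gave 2 answers from 2 probes. The probe that represents it here was at -0.22, -0.04 and 0.01 on the thymic arrays and at -0.80, 0.23 and -0.29 on the thyroid arrays, so the groups overlapped (0.20, 95% confidence interval -0.41 to 0.81, adjusted p = 0.505, limma). The other probe was at 1.68, 1.55 and 1.68 on the thymic arrays, against -3.96, -3.60 and -3.89 on the thyroid arrays, a difference of 5.45 (adjusted p over all probes = 3.72e-07, limma). Both probes were above background on all 6 arrays. The other probe, which starts at base 1422 of the transcript, is shown because it carries the difference, and only its first 30 bases are given, with none singled out by capitals.
Serpinc1 other probe, chr1:162839111-162839170 (mm8), plus strand, first 30 bases: gggagagtggctaatccttgtgtgaactaa
Whether the representing probe also binds another transcript was not tested. With the median over both probes, Serpinc1 differed by 2.83 (adjusted p = 1.45e-05, limma), and within slide 1 the other probe had the higher mean and the gene differed by 5.59. With the slide as a block the representing probe differed by 0.71 and passed (adjusted p = 0.0443, limma).

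Of 19 serpin genes with 2 probes, 15 had both probes tested. These pairs had the same sign in all 15 and the same call in 14, with Serpinc1 as the exception. The gap between the differences of a pair had a median of 0.85 and exceeded 2 in Serpinc1, Serpinb12, Serpinb1b and Serpinb3a. For Serpinb12 the second probe differed by 6.13, with thyroid levels of -8.54, -3.54 and -8.83, so thyroid array 2 stood apart there. Serpinb1b gave 5.68 at base 530 of its transcript and 2.53 at base 1412. The second probe of Serpinf1 gave -4.26. Pairs with an untested probe were left out, so the agreement covers only pairs that passed the filter on background. Among those left out, Serpina5 gave 5.16 and -0.28, Serpina4-ps1 1.61 and -0.29, and Serpinb10 7.24 and 2.49. Serpinb9g, with no probe tested, gave 1.91 and -0.75. Tested on its own, every probe counted, 57 of the 63 serpin probes were higher in thymic cells and 3 were lower, against 37.2% higher among all 32347 probes tested.

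**Figure D3:**
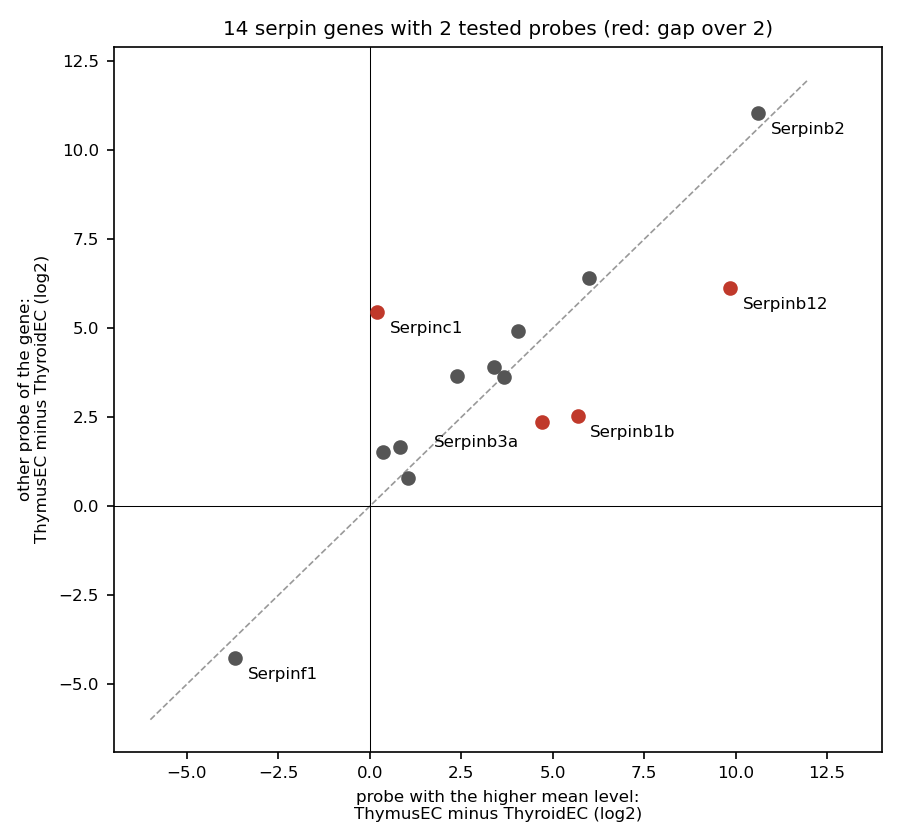
Difference between ThymusEC and ThyroidEC (log2) by the probe that represents the gene (x axis) and by its other probe (y axis) for 14 serpin genes with 2 tested probes; the dashed line marks equality and red points have a gap over 2. Serpinc1 lies farthest from the line, with 0.20 on the x axis and 5.45 on the y axis.

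In all, 6 serpin probes are listed in the array files with transcripts of more than 1 gene, and their values may mix close copies. They include the probes of Serpina1d, Serpina1e, Serpinb3b, both of Serpinb9g and a second probe of Serpinb3c (difference 4.91), whose transcripts also belong to Serpinb3b. That last probe, which starts at base 705 of the transcript, is printed as an example of one listed for 2 genes.
Serpinb3c second probe, chr1:109099572-109100253 (mm8), minus strand: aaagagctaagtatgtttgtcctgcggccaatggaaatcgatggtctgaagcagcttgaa
Values of these genes are therefore uncertain as to the copy. Another 3 serpin genes that could be tested carry other names in the array files and were outside the rule: the probes now annotated as Serpina3j, Serpine3 and Serpinb6d differed by 3.60, 1.65 and 0.75 towards the thymic cells.

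Most serpins lie in 3 clusters, and within each the genes tested were all higher in thymic cells, except that Serpinb6a turned negative with median centring and Serpinb9e with quantile normalization. The cluster on chromosome 1 had 11 of 11 genes tested higher with a median of 6.78, that on chromosome 12, which holds clade a, 18 of 18 with a median of 3.43, and that on chromosome 13 9 of 9 with a median of 2.79. Both exceptions lie on chromosome 13. Above background on all 6 arrays were 3 of these genes on chromosome 1, 6 on chromosome 12 and 7 on chromosome 13. All of them were higher, against 29.4% of all such genes. The other cluster genes tested passed the filter only by their thymic arrays, which favours a higher call. Of the 30 genes that flank the clusters, 5 on each side, 27 were tested: 9 were higher and 12 lower, with a median of -0.29, beside 39.2% higher and 30.6% lower among all genes tested. Of the flanking genes, those named next were chosen after their values were seen. Bcl2 and Kdsr, close to the first gene of the chromosome 1 cluster, differed by -2.16 and -1.25, while Cntnap5a beyond its other end was at least 12.4-fold higher. On chromosome 12 the flank held Ifi27l2b, at least 106.3-fold higher, and Dicer1, at -0.38. Within the clusters the differences were uneven: Serpinb3d at -0.17 and not above background lay between Serpinb3a and Serpinb3b, and Serpinb9b and Serpinb9c lay on both sides of Serpinb1b.

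**Figure D4:**
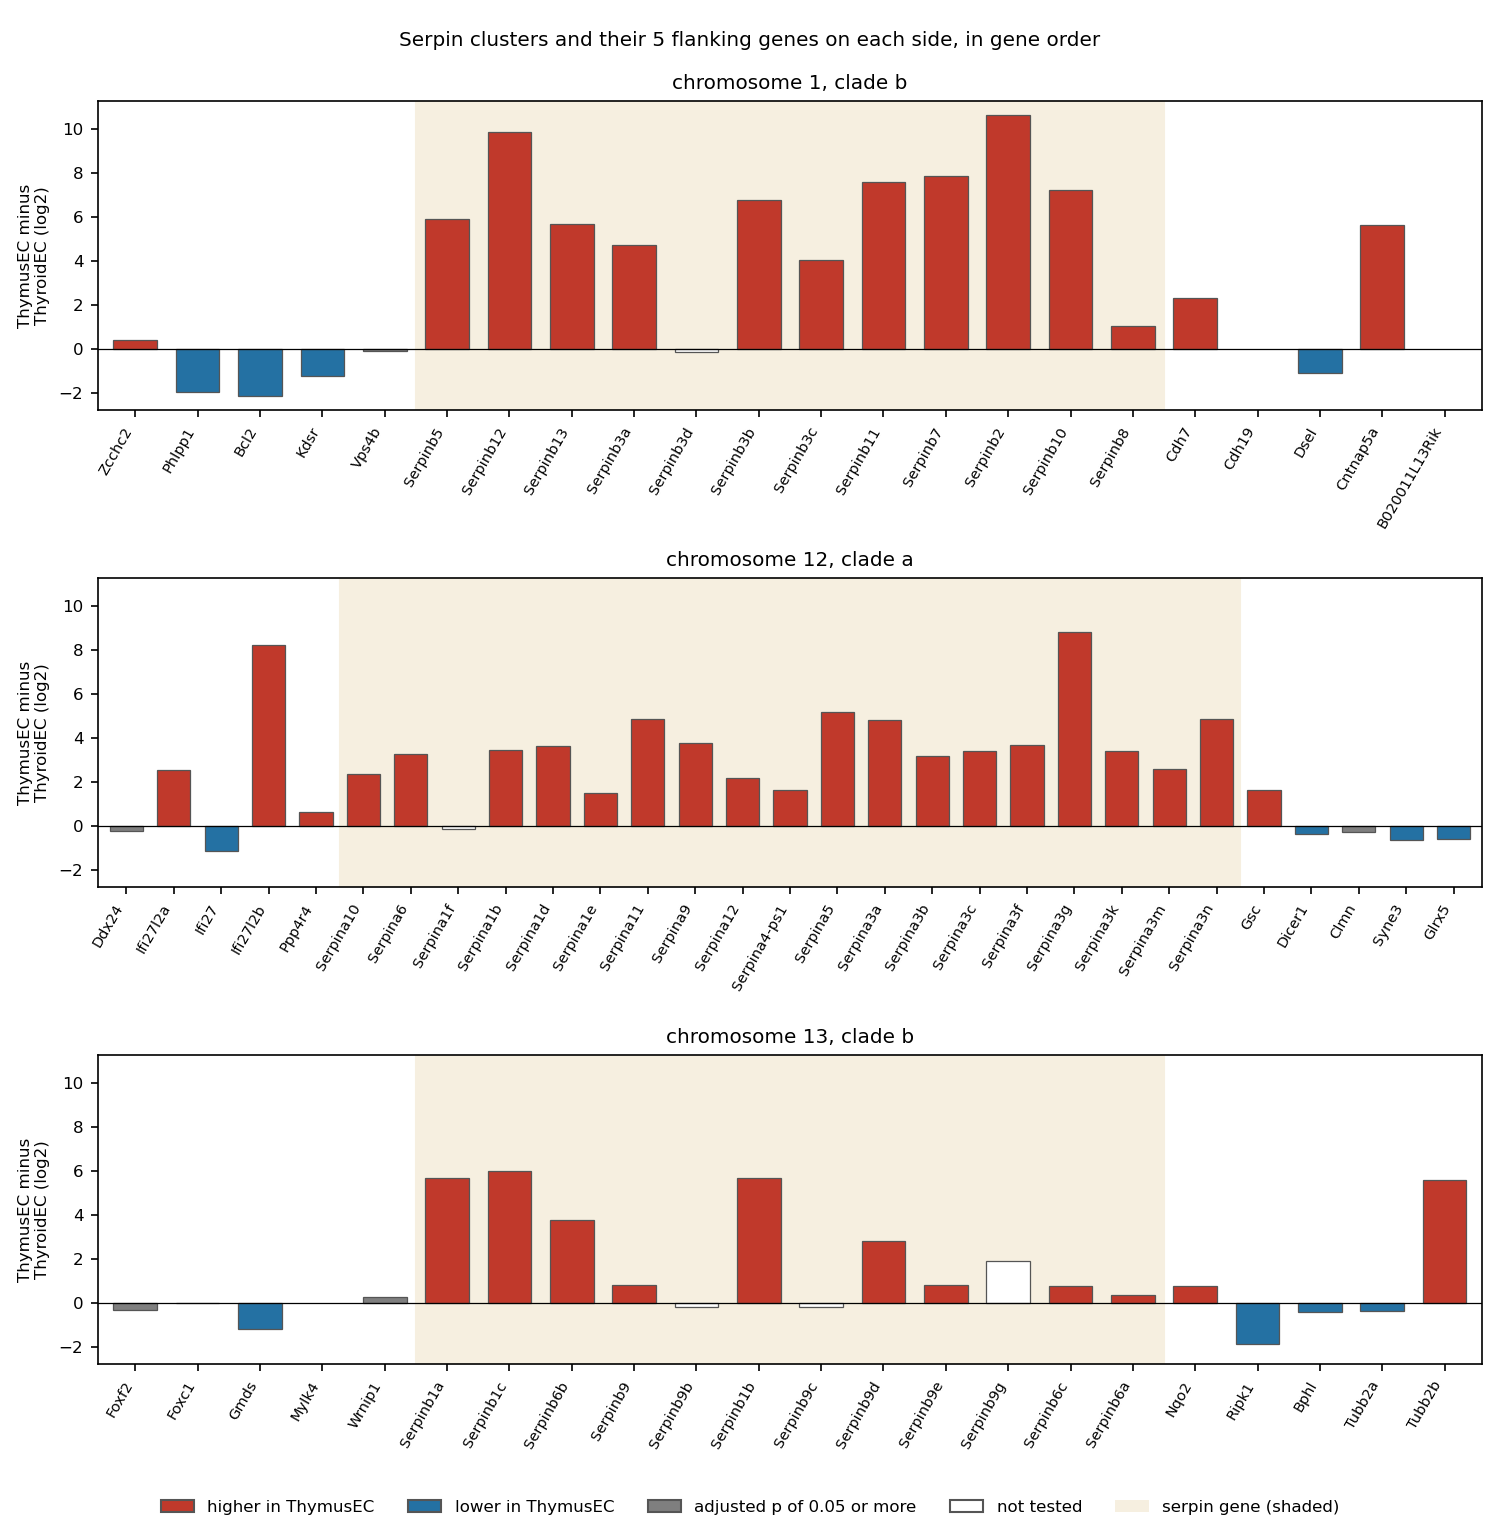
Difference between ThymusEC and ThyroidEC (y axis, log2) for the serpin genes of the clusters on chromosomes 1, 12 and 13 (shaded) and 5 flanking genes per side, in gene order (x axis, not to scale); red bars were higher and blue bars lower in ThymusEC, grey bars did not pass and white bars were not tested, and genes without a bar have no value. All tested serpins point up on this scale (Serpinb6a turns to -0.17 under median centring and Serpinb9e to -0.50 under quantile normalization), and the flanking genes point both ways.

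Of 25 extracellular proteases that serpins inhibit, 19 were higher in thymic cells and 3 lower, with a median difference of 2.47, beside 39.2% higher and 30.6% lower among all genes tested. The skin kallikrein Klk5 was at least 19.3-fold and the mast cell chymase Mcpt4 at least 83.0-fold higher, and prothrombin, F2, differed by 5.43 (adjusted p = 4.08e-07, limma). The membrane proteases Prss8 and Hpn and the plasminogen activator Plat were lower, by -2.05, -1.23 and -1.12. Of 10 intracellular target proteases tested, 5 were higher and 3 lower, which is near those shares. Gzmb, the target of Serpinb9, was at least 17.4-fold higher, Casp1 differed by 5.31 and Gzma was at least 10.1-fold higher, while Ctsb, the target of Serpina3g, was lower by -1.70, Gzmm by -1.33 and Casp8 by -0.44.

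Of 8 receptors that clear serpin complexes and cofactors of serpins, 5 were lower and 2 higher, with a median of -2.16, where 30.6% of all genes tested were lower in the same fit. The lists of other genes were not recounted with median centring, with which 51.6% of all genes tested were lower. Thbd, thrombomodulin, differed by -5.34, Lrp2, or megalin, by -3.34 and Plaur, the urokinase receptor, by -3.12, while Lrp1 (1.44) and Lrp8 (at least 7.4-fold) were higher in thymic cells. Of 17 collagens and collagen-processing genes tested, 11 were lower and 2 higher, beside 30.6% lower and 39.2% higher among all genes tested. Col4a2 and Col4a1, the chains of basement membrane collagen, differed by -4.39 and -3.81, and Plod1, a collagen lysyl hydroxylase, by -3.69, whereas Col6a1 (3.94) and Col5a1 (2.89) were higher in thymic cells. The endothelial markers given above were lower in thymic cells beside these genes and beside Serpinf1, whereas of 10 fibroblast and pericyte markers 2 were higher, 1 lower and 7 not called, and their part in these differences was not tested. The other plasma hormone carriers behaved like Serpina7 and Serpina6: Alb was at least 18.5-fold, Ttr at least 2.2-fold and Shbg at least 1.9-fold higher in thymic cells, and none of the 3 was above background on a thyroid array.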

How the data were processed

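Total RNA was labelled with Cy3. Spots were quantified by the authors in Agilent's Feature Extraction software (version 10.5.1.1), and probe positions are on mm8, per the file headers. Per the file headers, the authors' deposited scanner files hold each spot's intensity, background-subtracted in the processed signal used here. The deposited value table is a linear ratio, found here to equal that signal over the array's median (column medians 1.0). Control and outlier spots (67 to 151 per array) were left out and spots of a probe averaged. No spot was saturated, and the 75th percentile signal was 676 to 772 on the thymic and 476 to 805 on the thyroid arrays. Precision is limited by there being 3 arrays in each group.

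Levels are log2 of the deposited processed signal after dividing by the 75th percentile of the same array. The software's mark for well above background used 13 background SDs. Where several probes of a gene were tested, the one with the highest mean represents it. Names came from a RefSeq table (GRCm38.p6): 24375 probes matched by accession, 6301 by symbol, 2426 by an older symbol, and 8072 kept the file's name. The comparison used lmFit and eBayes of limma 3.58.1 (R 4.3.3; two-sided, no covariate), a fit tested on simulated data. A fold against a group with no array above background raises each dim value to that array's faintest signal above background, on the 75th percentile scale. The members, gene lists and tests were chosen with earlier results of these data known. Of the members, the genes of clades c to i are given on every array except 1 that is not reported here, though it stays in the counts, and in each of clades a and b the 6 largest differences and the 3 smallest; of each list of other genes, up to 3 per direction are named. Promoters are RefSeq's 250 bases before to 50 after each start. The alternatives were median centring, quantile normalization, normexp (offset 50), the value table, 2 other filters, the median over probes, every probe, the slide as a block or slide 1 alone (its lone thyroid array assumed to vary like the thymic ones), a replicate block, array weights, a trended and robust variance estimate, and omission of each array in turn.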

Additional observations from a re-analysis of the deposited data

How the results depend on the processing

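Of 48 serpin genes tested, 29 kept direction and call under every alternative run, and 19 changed somewhere. The count of higher genes was 34 to 44 of 48 or 49 tested with each alternative except 3: 20 of 25 where background had to be exceeded on all 6 arrays, which tests fewer genes, 43 of 54 with no filter, and 57 of 63 probes when each was tested alone. Leaving out 1 replicate gave 41 to 43 higher and 2 to 3 lower genes. The count of lower genes was 4 with median centring and 4 with the value table, both of which move the median difference of all genes tested to -0.43 and -0.42 (0.10 in the main setting), so relative to all genes the serpin median of 2.90 stayed as far above. Normexp correction compresses faint signals, with a serpin median of 1.04, and 9 genes lost their call under it. Signs reversed for Serpinb6a (-0.17 with median centring, -0.16 with the value table), Serpinb9e (-0.50 with quantile normalization), Serpinc1 (-0.33, -0.32, and -0.05 without thyroid replicate 1, with a range of -0.05 to 0.46 when 1 replicate was left out), Serpinf2 (-0.45, -0.44, -0.99 with quantile normalization, -0.09 with normexp and -0.04 without thyroid replicate 2, with a range of -0.04 to 0.26) and Serpini1 (-0.08, -0.07). The cause was not tested. The replicate numbers do not pair the arrays: deviations of same-numbered arrays correlated at 0.007, -0.067 and -0.054 across genes. With the replicate block 42 serpin genes were higher and 2 lower, and Serpinb6a lost its call (adjusted p = 0.0537, limma).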
